A study of Mus musculus with 18 samples.

Results

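Canonical Wnt signalling switches on a set of genes that includes its own brakes, and 10 of these feedback and target genes were followed here in mouse embryoid bodies exposed to thalidomide: Sp5, Sp8, Axin2, Nkd1, Notum, Lgr5, Rnf43, Znrf3, Lef1 and Tcf7. They were chosen by name, and all probe sets carrying only their symbol were taken. There were 12 such probe sets for 9 of the 10 genes, among 22180 named genes in all, and Tcf7 was not analysed here. Where a gene had a pair of probe sets (Axin2, Lgr5 and Notum), the brighter one stands for the gene and the dimmer one is given beside its exposure differences and called time steps.

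Embryonic stem cells of the mouse strain C57BL/6 were differentiated as embryoid bodies, free-floating aggregates of mixed cell types. From day 3 of that stage the cultures received 0.25 mM thalidomide in 0.25% DMSO as the vehicle, or the vehicle alone. Thalidomide is a human teratogen that binds the ubiquitin ligase receptor cereblon. RNA was taken after 24, 48 and 72 h. Each of the 6 groups (control and exposed at 3 times) held 3 arrays that the labels call biological replicates. The series text calls the controls unexposed and their labels count time after the embryoid bodies formed, so exposure cannot be told apart from the vehicle or from a difference in stage. The stem cells were kept before differentiation in a medium with BMP-4, LIF and an inhibitor of the kinase GSK3 beta, which is itself a relay of the Wnt pathway, and the labels used here do not say which medium the embryoid bodies had. A tag in the labels marks 12 arrays as re-analysed and is absent from the 6 that were exposed for 48 h or 72 h, so at those times the tag and the exposure cannot be told apart. The exposed step from 24 h to 48 h crosses the tag too, so there the tag and time cannot be told apart. This holds as well for differences of the exposure effect between 24 h and a later time.

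Values are log2 signals after robust multi-array averaging, so a difference of 1 is a 2-fold change, and they are not compared between genes because each probe set has its own brightness. A gene was called changed where limma's two-sided test, adjusted by the Benjamini-Hochberg method over all 22180 genes, gave an adjusted p under 0.05. Arrays of the same group correlated across genes at r = 0.992 to 0.996. Over all genes 1521 were called at 24 h, 1349 at 48 h and 2 at 72 h. At 24 h 79.2% of the calls were lower in exposed cultures, against 65.2% after cyclic loess normalization between arrays. With 1 array left out these counts ran from 581 (without the third control of 24 h) to 1495, from 494 (without the second exposed array of 48 h) to 1549, and from 0 to 81 (without the first exposed array of 72 h).

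In the absence of a Wnt ligand, a complex of Axin, APC and GSK3 marks beta-catenin for destruction. Wnt bound to Frizzled and LRP receptors stops this, and beta-catenin then joins DNA-binding factors of the TCF/LEF family to activate target genes. In the early embryo this signal drives the primitive streak, where mesoderm and endoderm arise. Several targets act back on the pathway: Axin2 rebuilds the destruction complex, Nkd1 binds Dishevelled, Notum removes a lipid from Wnt ligands, and Rnf43 and Znrf3 take Frizzled off the cell surface unless R-spondin and its receptor Lgr5 hold them back.

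The promoter of Sp5 is shown because Sp5 was the member whose signal changed on exposure and because it is a direct target in textbooks. Its 250 bases before the gene's start, from RefSeq on build GRCm38.p6, lie at chr2:70474673-70474922 on the plus strand. Capitals mark matches to the TCF/LEF motif, searched as CTTTGAA, as CTTTGAT, as CTTTGTA and as CTTTGTT on both strands.
Sp5: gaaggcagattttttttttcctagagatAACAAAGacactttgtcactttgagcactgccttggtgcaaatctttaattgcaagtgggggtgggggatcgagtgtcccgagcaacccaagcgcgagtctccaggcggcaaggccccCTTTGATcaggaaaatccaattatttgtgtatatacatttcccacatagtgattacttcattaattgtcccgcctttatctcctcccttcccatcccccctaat
The window holds 2 matches, one from 222 to 216 and one from 104 to 98 bases before the start. Of 32851 promoter windows of 250 bases in the table, 14.8% held at least 1 match and 1.43% held 2 or more.

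For 7 of the 10 genes the table listed 14 such windows, and 3 of these windows, of 3 genes, held a match. Besides Sp5 these were 1 of the listed starts of Lef1 (at chr3:131156137-131156163, plus strand) and 1 of those of Sp8 (at chr12:118847172-118847198, plus strand), shown as 27 bases with the match in capitals to set them beside Sp5.
Lef1: aacctcagaaTACAAAGtaggattgca
Sp8: tccgcggcacTTCAAAGccggagaggg
The listed windows of Axin2, Nkd1, Rnf43 and Tcf7 held no such letters, and Lgr5, Notum and Znrf3 were not in the table. A match is a string of letters and was not tested as a binding site.

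After 24 h of thalidomide 1 of the 9 measured genes was called, where 6.86% of all genes were (1.42% higher and 5.43% lower in exposed cultures), and that gene was Sp5, which fell. Sp5 encodes a zinc finger factor of the Sp family that is transcribed in the primitive streak. The feedback genes Axin2, Nkd1, Notum, Rnf43 and Znrf3, the R-spondin receptor Lgr5 and the effector Lef1 did not pass, and their values ran from -0.15 to 0.14. The median of the 9 genes was -0.04, and that of all genes -0.01.

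Sp5 had signals of 7.95, 7.80 and 7.83 in the control arrays of 24 h and of 7.29, 7.01 and 7.08 in the exposed arrays. All 3 exposed arrays lay below all 3 controls, which was so for 15.9% of all genes. The change was -0.73 ± 0.10 (SE, n = 3 per group), a 1.66-fold lower signal with a 95% interval of the log2 change from -0.95 to -0.51 (limma adjusted p = 0.000944). The call held in all 8 alternative settings and in all 18 fits that left out 1 array. In these mixed cultures fewer cells of a type and less RNA per cell cannot be told apart.

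The summed level of primitive streak markers was lower in the same exposed arrays of 24 h, with no marker called. Of 7 measured markers (Mixl1, Eomes, Mesp1, Gsc, Evx1, Lhx1 and Foxa2) limma called 0, with a median of -0.25. Of the 7 streak markers 3 had an unadjusted p under 0.05, as had 4710 of the 22180 genes. Their summed log2 level ran from 58.7 to 59.2 in control and from 56.8 to 57.8 in exposed arrays, without overlap. Presomitic mesoderm markers had summed levels of 52.8 to 53.5 and of 51.5 to 54.5, which overlapped. Definitive endoderm markers, a list that shares Gsc and Foxa2 with the streak list, were also lower without overlap. Their summed level ran from 66.5 to 67.4 in control and from 65.2 to 65.9 in exposed arrays, with 0 of 8 called. The part of any of these lists in the change of Sp5 was not tested.

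**Figure D1:**
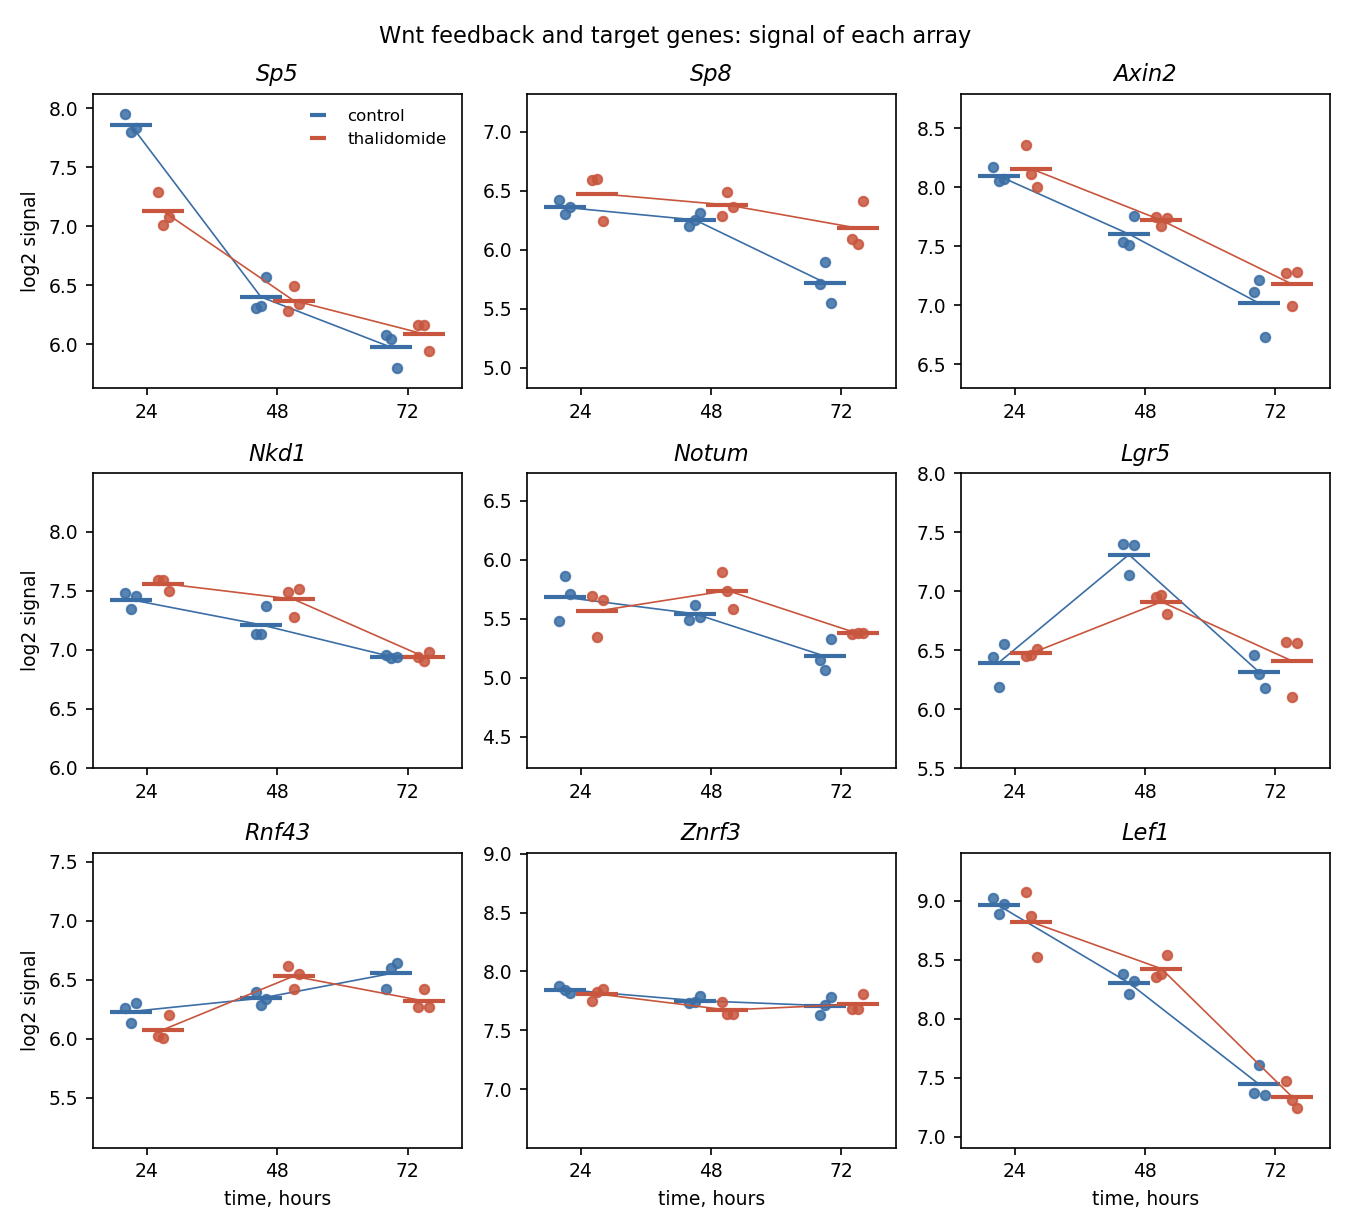
Log2 signal of each array (points) and group means (bars joined by lines) for the 9 measured genes at 24, 48 and 72 h, with control arrays in blue and exposed arrays in red; every panel spans the same 2.5 log2 units. The 3 exposed arrays of Sp5 at 24 h sit between 7.01 and 7.29, below the controls at 7.80 to 7.95, whereas at 48 h and 72 h the groups overlap.

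At 48 h the Sp5 signals were 6.31, 6.32 and 6.57 in control and 6.28, 6.49 and 6.34 in exposed arrays. At 72 h they were 6.08, 6.04 and 5.80 in control and 6.16, 6.16 and 5.94 in exposed arrays. The groups overlapped at both times, with differences of -0.03 (95% interval -0.25 to 0.19) and 0.11 (95% interval -0.11 to 0.33). The exposure effect on Sp5 was 0.84 ± 0.15 (SE) higher at 72 h than at 24 h, and this difference passed (limma adjusted p = 0.0228), 1 of 9 members where 0.496% of all genes did (0.383% with a higher effect at 72 h).

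That difference was lost in 5 fits. They were the fit on only the 4 groups concerned (adjusted p = 0.0573) and those without the first control of 24 h (0.79, adjusted p = 0.0729), the third control of 24 h (0.85, adjusted p = 0.0541), the third control of 72 h (0.75, adjusted p = 0.0604) or the first exposed array of 72 h (0.80, adjusted p = 0.0595). The difference between 24 h and 48 h was 0.70 ± 0.15 (SE) and did not pass (limma adjusted p = 0.22). Between these times limma called 0 of all genes, of which 1701 had an unadjusted p under 0.05.

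Sp8, the other Sp family factor, acts in limb buds and the forming brain. Its signals at 72 h were 5.71, 5.90 and 5.55 in control and 6.09, 6.05 and 6.41 in exposed arrays. All exposed arrays were above all controls, as in 7.27% of all genes. The difference of 0.46 ± 0.11 (SE, n = 3 per group), with a 95% interval from 0.22 to 0.70, did not pass over all genes (limma adjusted p = 0.162), and it ran from 0.35 to 0.55 when 1 array was left out.

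At 24 h and 48 h the differences of Sp8 were 0.12 and 0.13, with overlapping arrays. Markers of neural progenitors (Sox1, Pax6, Sox3, Nes, Zic1, Hes5, Olig3 and Neurog2) were at a higher summed level in the same exposed arrays of 72 h, 50.1 to 53.9 against 45.6 to 49.3 in control. None of these 8 markers was called by limma, and 5 had an unadjusted p under 0.05, as had 2023 of the 22180 genes. Presomitic mesoderm markers were also higher without overlap, at 46.2 to 47.4 against 45 to 46 in control. Endothelial markers (48 to 55.5 against 55.6 to 56.6) and cardiac markers (54.5 to 61.6 against 65.2 to 65.6) were lower without overlap. The part of any of these lists in the value of Sp8 was not tested.

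Axin2 is the feedback gene most often read as a gauge of canonical Wnt activity. On its brighter probe set the groups overlapped at all 3 times. Its signals at 24 h were 8.17, 8.05 and 8.07 in control and 8.36, 8.11 and 8.0 in exposed arrays. At 48 h they were 7.54, 7.51 and 7.76 in control and 7.75, 7.67 and 7.74 in exposed arrays. At 72 h they were 7.11, 7.21 and 6.73 in control and 7.27, 6.99 and 7.28 in exposed arrays.

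The exposure differences of Axin2 were 0.06 (95% interval -0.20 to 0.31), 0.12 (-0.14 to 0.37) and 0.16 (-0.09 to 0.42) at 24, 48 and 72 h. At 24 h the interval of Axin2 and that of Sp5 did not meet. The dimmer probe set of Axin2 gave 0.01, 0.25 and 0.26, also not called (limma adjusted p = 0.976, 0.285 and 0.702 over all probe sets). On it all exposed arrays were above all controls at 48 h and at 72 h. On the probe sets used this was so for 12.3% of all genes at 48 h and 7.27% at 72 h.

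Nkd1, an inhibitor that binds Dishevelled, had signals of 7.48, 7.34 and 7.45 in control and of 7.59, 7.59 and 7.50 in exposed arrays at 24 h. The exposed arrays were the higher ones, as in 9.23% of all genes, with a difference of 0.14 (limma adjusted p = 0.337). At 48 h its signals were 7.13, 7.13 and 7.37 against 7.49, 7.28 and 7.51, which overlapped, with a difference of 0.22 ± 0.08 (SE; limma adjusted p = 0.0981). This value passed after cyclic loess (0.28, adjusted p = 0.0446), with genes dimmer than the median left out (adjusted p = 0.0428) and without the third control of 48 h (0.30, adjusted p = 0.0492). At 72 h both group means were 6.94.

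At 48 h limma called 0 of the 9 genes, where 6.08% of all genes were called (1.85% higher and 4.23% lower). An unadjusted p under 0.05 was found for 3 of the 9 (Nkd1, Lgr5 and Rnf43) and for 5161 of the 22180 genes. At 72 h limma called 0 of the 9, where 0.00902% of all genes were called. Here 2 (Sp8 and Rnf43) had an unadjusted p under 0.05, as had 2023 of the 22180 genes. The medians of the 9 genes were 0.12 and 0.10, and those of all genes 0.01 and 0.00.

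**Figure D2:**
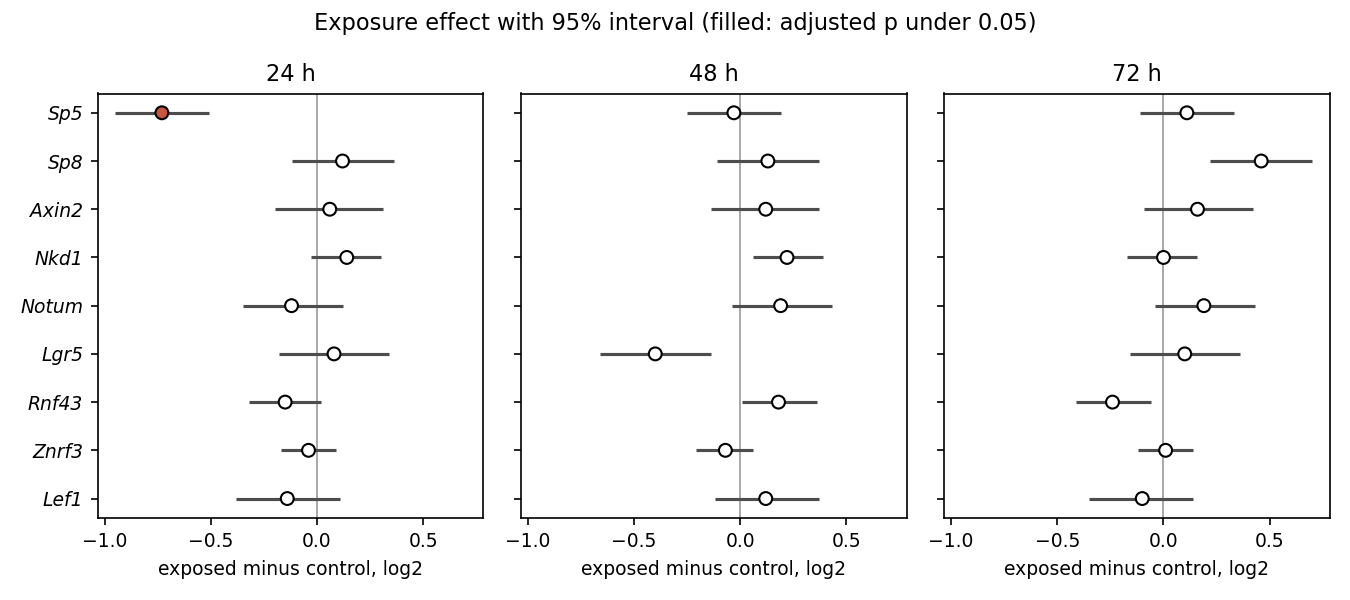
Exposed minus control on the log2 scale (points) with 95% intervals from the limma fit (lines) for the 9 measured genes at each time; filled points passed an adjusted p under 0.05. Only Sp5 at 24 h is filled, and its interval from -0.95 to -0.51 lies apart from those of the other 8 genes at that time.

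Lgr5, which with R-spondin shields Frizzled and marks Wnt-responsive cells in several tissues, was lower in the exposed arrays of 48 h without passing. Its signals there were 7.40, 7.14 and 7.39 in control and 6.95, 6.97 and 6.81 in exposed arrays. The groups did not overlap, as in 16.9% of all genes with the exposed arrays lower. The difference was -0.40 ± 0.12 (SE, n = 3 per group), with a 95% interval from -0.66 to -0.14 (limma adjusted p = 0.0635).

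This value of Lgr5 passed with genes dimmer than the median left out (adjusted p = 0.0274), with a trended and robust variance (adjusted p = 0.0313), with the replicate number as a block (adjusted p = 0.0482) and without the second exposed array of 72 h (adjusted p = 0.0311). Averaged over both probe sets it was -0.25. The dimmer probe set, with group means between 5.16 and 5.35, had a value of -0.10 at 48 h. At 24 h and 72 h the exposure differences were 0.08 and 0.10, and the differences of the effect between 24 h and 48 h (-0.48) and between 48 h and 72 h (0.50) did not pass (limma adjusted p = 0.53 and 0.203).

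Rnf43, a membrane ubiquitin ligase, had exposure differences of both signs. Its signals were 6.26, 6.13 and 6.30 in control and 6.02, 6.01 and 6.20 in exposed arrays at 24 h. At 48 h they were 6.40, 6.29 and 6.34 against 6.62, 6.42 and 6.55, and at 72 h 6.42, 6.60 and 6.64 against 6.27, 6.42 and 6.27. The differences were -0.15, 0.18 and -0.24, with adjusted p = 0.308, 0.189 and 0.352 from limma. The groups overlapped at 24 h, while at 48 h all exposed arrays were higher, as in 12.3% of all genes, and at 72 h all were lower, as in 7.51%.

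The shift of the effect on Rnf43 between 48 h and 72 h was -0.42 ± 0.12 (SE; limma adjusted p = 0.121), and it passed with genes dimmer than the median left out (adjusted p = 0.0423). No member's effect differed by limma between 48 h and 72 h, where 0.0947% of all genes were called. For this difference 2 members had an unadjusted p under 0.05, as had 3110 of the 22180 genes. The relative of Rnf43, Znrf3, was the flattest of the 9 genes, with group means from 7.68 to 7.85 and exposure differences of -0.04, -0.07 and 0.01. The 95% intervals of Znrf3 stayed between -0.21 and 0.14 at all times.

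Notum, a secreted enzyme that inactivates Wnt ligands, had exposure differences of -0.12, 0.19 and 0.19. Its arrays of 72 h lay at 5.15, 5.07 and 5.33 in control and at 5.37, 5.38 and 5.38 in exposed cultures and did not overlap, as in 7.27% of all genes with the exposed arrays higher, but the difference did not pass (limma adjusted p = 0.666). Notum was dim, with a mean signal of 5.52 at percentile 45.1 of all genes, and its other probe set gave 0.01, 0.24 and 0.10.

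Lef1, a DNA-binding partner of beta-catenin that is also its target, did not pass at any time. Its signals at 24 h were 9.02, 8.89 and 8.97 in control and 9.07, 8.87 and 8.52 in exposed arrays, which overlapped, since the exposed arrays held both the highest and the lowest of the 6 signals. The differences were -0.14 (95% interval -0.38 to 0.11), 0.12 (-0.12 to 0.37) and -0.10 (-0.35 to 0.14). Without the third exposed array of 24 h the first of them was 0.01.

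More of these genes were called between times than between treatments. From 24 h to 48 h in control cultures Sp5, Axin2 and Lef1 fell and Lgr5 rose, 4 of 9 genes where 13.6% of all genes were called (6.93% up and 6.7% down). From 48 h to 72 h Sp5, Axin2, Lef1, Lgr5 and Sp8 fell, 5 of 9 where 6.53% were called (3.62% up and 2.9% down). The medians of the 9 genes were -0.14 and -0.43, against -0.02 for all genes in both steps.

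Sp5 had the steepest early fall of the 9, from 7.86 ± 0.08 to 6.40 ± 0.15 (SD, n = 3), a log2 change of -1.46 (limma adjusted p = 9.28e-08), or 2.75-fold. Exposed cultures started at 7.13 ± 0.15 and came to 6.37 ± 0.11 (SD, n = 3), which is a change of -0.76. The next step in control was -0.43 (limma adjusted p = 0.0181), and it did not pass without the third control of 48 h (-0.34, adjusted p = 0.108) or of 72 h (-0.34, adjusted p = 0.101), nor in a fit of these 2 groups alone (adjusted p = 0.0668). In exposed cultures that step was -0.29 and did not pass.

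Lef1 went in control from 8.96 ± 0.07 to 8.30 ± 0.09 and 7.44 ± 0.15 (SD, n = 3), changes of -0.66 and -0.86 (limma adjusted p = 0.000919 and 0.000181). In exposed cultures the steps were -0.40, with overlapping arrays, and -1.08. Axin2 fell in both steps and both treatments, with changes of -0.49 and -0.59 in control and of -0.44 and -0.54 in exposed cultures. In a fit of only the control groups of 48 h and 72 h its last control step did not pass (limma adjusted p = 0.0505). The dimmer probe set of Axin2 had -0.37 and -0.15 in control and -0.13 and -0.13 in exposed cultures, none called (limma adjusted p = 0.0993, 0.684, 0.672 and 0.607 over all probe sets). Averaged over both probe sets the steps of Axin2 were -0.43 and -0.37 in control and -0.28 and -0.34 in exposed cultures, of which the first exposed step did not pass (limma adjusted p = 0.107).

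Lgr5 was high at 48 h only: the control means were 6.39 ± 0.19, 7.31 ± 0.14 and 6.31 ± 0.14 (SD, n = 3). It rose by 0.92 on the log2 scale and then fell by 1.00 (limma adjusted p = 7.64e-05 and 9.18e-05). In exposed cultures the same steps were 0.44 and -0.50 and both passed, to and from a mean of 6.91 ± 0.09 (SD, n = 3).

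The dimmer probe set of Lgr5 did not pass in any of these steps, with values of 0.13 and -0.18 in control (limma adjusted p = 0.476 and 0.412 over all probe sets) and of 0.02 and -0.07 in exposed cultures. Averaged over both probe sets the control steps were 0.52 and -0.59 and passed. The exposed steps then were 0.23, which did not pass (limma adjusted p = 0.0984), and -0.28, which did (0.0362).

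Sp8 fell in control at the last step from 6.26 ± 0.05 to 5.72 ± 0.17 (SD, n = 3; limma adjusted p = 0.00786), a call that was lost without the third control of 72 h (-0.45, adjusted p = 0.0533). In exposed cultures that step of Sp8 was -0.20 and did not pass.

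Exposed cultures had 5 calls in each step, where 10.1% and 10.2% of all genes were called. The step from 24 h to 48 h runs from tagged to untagged arrays, so time and the tag cannot be told apart in it. In the first step Rnf43 and Lgr5 rose and Sp5, Axin2 and Lef1 fell (5.72% of all genes rose and 4.36% fell). In the second Axin2, Lef1, Nkd1, Notum and Lgr5 fell (6.42% of all genes rose and 3.76% fell). Rnf43 rose from 6.08 ± 0.10 to 6.53 ± 0.10 (SD, n = 3; limma adjusted p = 0.00173), while its step in control was 0.11. The difference of these steps, 0.33 ± 0.12 (SE), did not pass (limma adjusted p = 0.497). Nkd1 fell from 7.43 ± 0.13 to 6.94 ± 0.04 (SD, n = 3; limma adjusted p = 0.000964), against a step of -0.27 in control that missed the threshold (limma adjusted p = 0.0515) and passed in 5 of the 8 settings.

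Calls of the exposed course depended on single arrays for 4 of these genes. From 24 h to 48 h Axin2, Lef1 and Lgr5 passed in 13, 14 and 13 of the 18 fits that left out 1 array. Each was lost without the first or the second exposed array of either time, with adjusted p up to 0.132, 0.174 and 0.0948; without the first array of 24 h the values of Axin2 and Lef1 were -0.33 and -0.27. Axin2 was also lost without the third exposed array of 48 h (-0.44, adjusted p = 0.0665) and Lgr5 without the third of 24 h (0.45, adjusted p = 0.0612). Over all probe sets this step did not pass for Axin2, Lef1 or Lgr5 (limma adjusted p = 0.0586, 0.0734 and 0.0636). In a fit of its groups alone it did not pass for Axin2 or Lef1 (limma adjusted p = 0.0513 and 0.158). From 48 h to 72 h Lgr5 was lost without the second exposed array of 48 h (-0.47, adjusted p = 0.0634) or of 72 h (-0.34, adjusted p = 0.0787). It was also lost in a fit of only the exposed groups of these times (adjusted p = 0.0758). Notum, at an adjusted p of 0.0465, passed in 6 of 18 such fits (-0.44 to -0.28) and in 1 of 7 alternative settings, that with the trended robust variance (adjusted p = 0.0414). It was lost after cyclic loess (adjusted p = 0.0638), with array weights (0.0532), with the replicate number as a block (0.0668), with mean (0.0832) or all probe sets (0.0799) and in a fit of only these 2 groups (0.0705). The dimmer probe set of Notum had -0.25 in this step (limma adjusted p = 0.522 over all probe sets).

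**Figure D3:**
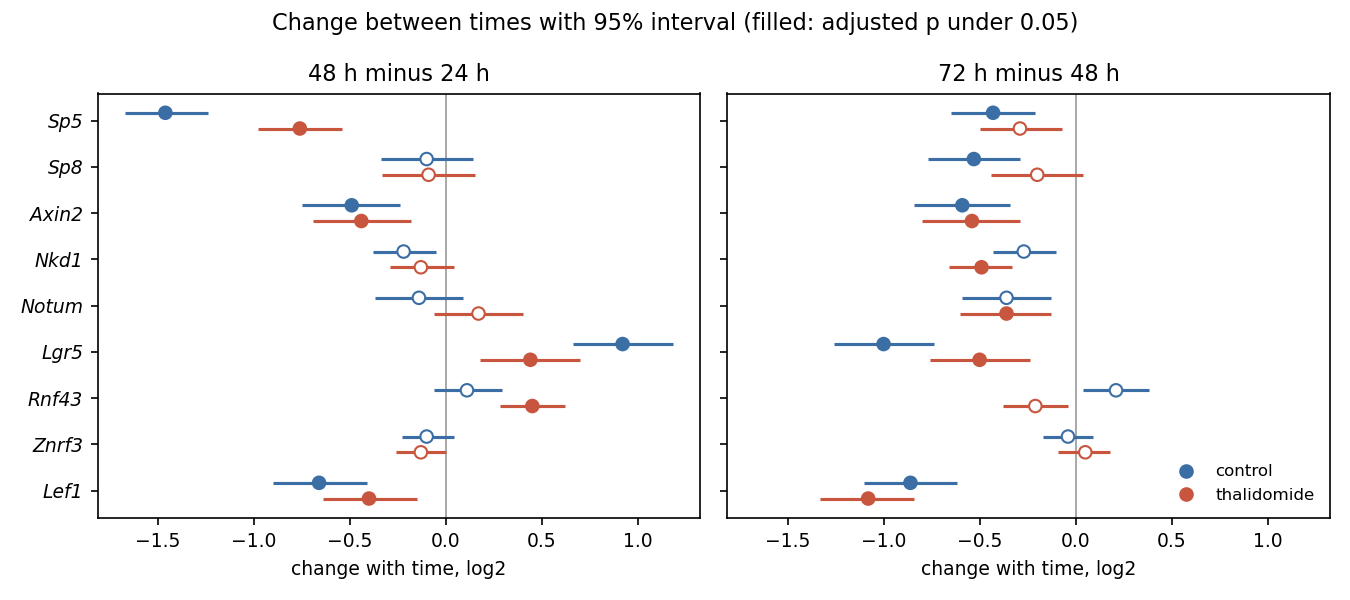
Change of each gene between consecutive times on the log2 scale (points) with 95% intervals (lines), in control (blue) and exposed cultures (red); filled points passed an adjusted p under 0.05. Lef1 and Axin2 fall in both steps and both treatments, Lgr5 rises and then falls, and the first fall of Sp5 is -1.46 in control and -0.76 in exposed cultures, which start lower.

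The fall of Sp5, Axin2 and Lef1 in control went along with that of streak and presomitic mesoderm markers. Rnf43 did not fall in control, and Lgr5 rose before it fell. Of the 7 measured streak markers 6 fell in control from 24 h to 48 h, where 6.7% of all genes fell. From 48 h to 72 h 5 fell, where 2.9% of all genes did. The list's summed level lay between 58.7 and 59.2 at 24 h and between 42.6 and 43.7 at 72 h. Of 8 presomitic mesoderm markers 4 fell in the first step and 5 in the second. Their summed level in control lay between 52.8 and 53.5 at 24 h and between 45 and 46 at 72 h. The summed level of 8 cardiac markers lay between 47.6 and 50.1 in control at 24 h and between 65.2 and 65.6 at 72 h, against 54.5 to 61.6 in exposed arrays of 72 h. On exposure at 72 h limma called 0 of these 8, where 0.00902% of all genes were called. Of the 8 cardiac markers 6 had an unadjusted p under 0.05, as had 2023 of the 22180 genes. The summed level of 8 naive pluripotency markers lay between 49.7 and 50.8 in control at 24 h and between 43.8 and 45.3 at 72 h. In each control step limma called 1 of these 8, Nanog, which went from 9.13 at 24 h to 4.82 at 72 h. The list medians of the 2 steps were -0.12 and -0.17. The part of cell composition in the course of the Wnt targets was not tested.

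Likeness over the 6 group means was taken as the root mean square difference after centring each gene. It was searched among 10638 genes of at least median signal, with predicted loci (Gm and Rik names) left out. The genes most like Sp5 were Gstk1 (0.057 log2 units), Ppp4r4 (0.083) and Fgf8 (0.092). Fgf8 is a growth factor of the streak, and its group means were 8.06 and 7.56 at 24 h, 6.74 and 6.71 at 48 h and 6.47 and 6.42 at 72 h in control and exposed cultures. Nearest to Axin2 were Gria4 (0.045), Snora74a (0.047) and Cbs (0.065), and nearest to Lef1 were Car2 (0.102), Nkx1-2 (0.103) and Abcb1b (0.111). The other members spanned no more than 1 log2 unit over the groups and were not matched.

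The rest of the pathway was read through 96 other genes in 6 lists by role, of which 94 were measured. On exposure 2 of the 94 rose and 3 fell at 24 h and likewise at 48 h, with medians of 0.02 and 0.00. Over all genes 6.86% were called at 24 h and 6.08% at 48 h. At 72 h limma called 0 of them, with 17 at an unadjusted p under 0.05, as had 2023 of the 22180 genes.

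Of 21 ligand and secretion genes Wnt8a, a ligand of the streak, fell at 24 h from 7.84 to 7.24 (-0.60, limma adjusted p = 0.0188). Wnt5b, usually counted as a non-canonical ligand, rose at 48 h from 5.76 to 6.17 (0.41, limma adjusted p = 0.00866). At 72 h the smallest p of this list was that of Wnt2, with a value of -0.55 (limma adjusted p = 0.326).

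Among 18 receptors and R-spondins limma called 0 at 24 h, with 3 at an unadjusted p under 0.05, where Lgr4, the sister receptor of Lgr5, had the smallest p (-0.22, limma adjusted p = 0.132). At 48 h Fzd8, a Frizzled receptor, fell from 7.71 to 7.30 (-0.41, limma adjusted p = 0.0145). At 72 h Fzd4 led with -0.53 (limma adjusted p = 0.403). Among 14 secreted antagonists Frzb, which binds Wnt ligands, fell at 48 h from 9.51 to 9.13 (-0.38, limma adjusted p = 0.0296). Sostdc1 at 24 h (0.40) and Sfrp2 at 72 h (0.85) did not pass (limma adjusted p = 0.057 and 0.109).

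Inside the cell, Axin1, the constitutive relative of Axin2 in the destruction complex, rose at both early times. It went from 7.46 to 7.81 at 24 h (0.34, limma adjusted p = 0.0446) and from 7.48 to 7.84 at 48 h (0.36, limma adjusted p = 0.0385), as the one gene called of 16 measured in its list. Among 10 nuclear genes Tcf7l2, a relative of Lef1, fell at 48 h from 8.13 to 7.79 (-0.35, limma adjusted p = 0.00526), and at 24 h Tle3, a co-repressor, had -0.21 (limma adjusted p = 0.129). At 72 h Btrc (-0.21) and Tle3 (0.13) had the smallest p of these lists (limma adjusted p = 0.283 and 0.696).

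Of 15 measured other targets Fgf8 (-0.49, limma adjusted p = 0.0456) and the growth regulator Myc (-0.46, limma adjusted p = 0.0105) fell at 24 h, and Cdx4, a homeobox gene of the posterior embryo, rose by 0.47 log2 units (limma adjusted p = 0.00759). The exposed and control arrays of Fgf8 overlapped at this time. Tbx6 and Msgn1, factors of presomitic mesoderm, had values of -0.45 and -0.49 and did not pass (limma adjusted p = 0.0623 and 0.0917). The other 12 of the 15 were not called, and over all genes 1.42% rose and 5.43% fell at this time. At 48 h Myc had -0.29 (limma adjusted p = 0.0857), and at 72 h the Notch ligand gene Dll1 had 0.60 (limma adjusted p = 0.126).

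**Figure D4:**
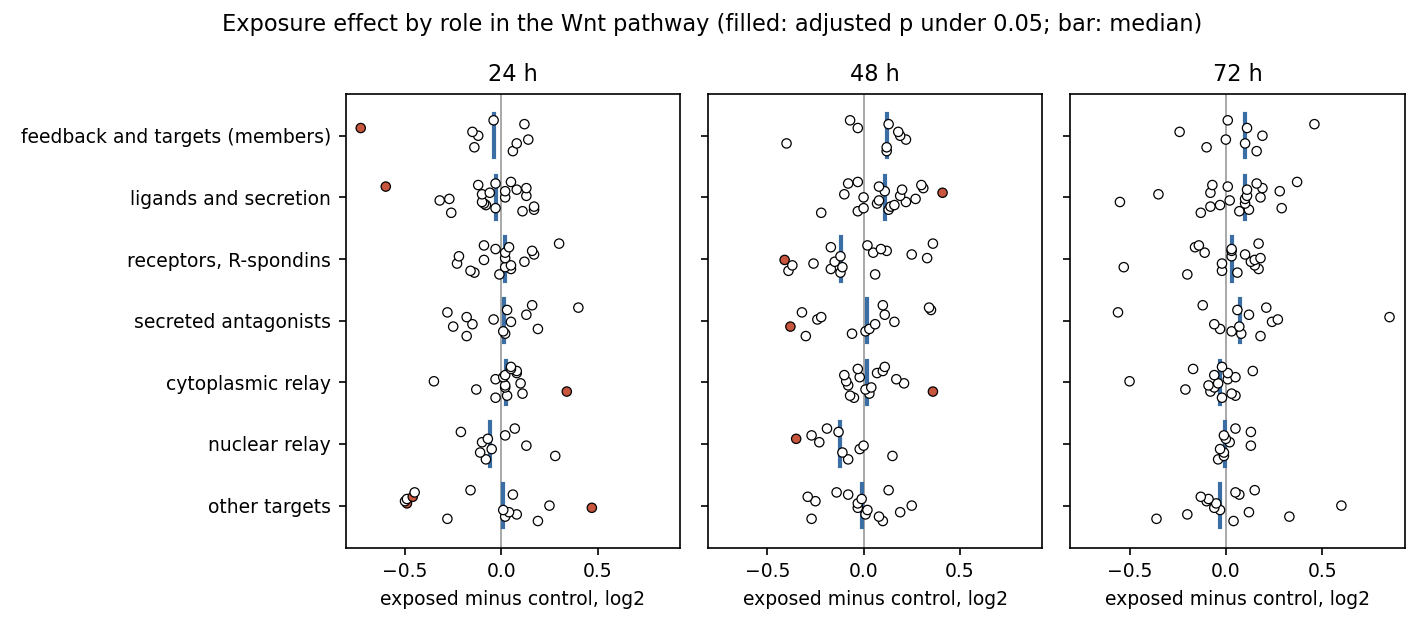
Exposed minus control on the log2 scale for the 9 measured feedback and target genes and for 6 lists of other pathway genes, 1 point per gene, with the list's median as a blue bar; filled points passed an adjusted p under 0.05. Filled points lie on both sides of 0 at 24 h and 48 h, none is filled at 72 h, and the list medians lie between -0.12 and 0.12.

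Over the control course 6.93% of all genes rose and 6.7% fell in the first step, and 3.62% rose and 2.9% fell in the second. From 24 h to 48 h Wnt3 fell from 8.12 to 6.32 (-1.80, limma adjusted p = 8.1e-08) and Wnt2b by 1.24 on the log2 scale, 6 of 21 ligand and secretion genes in all, while Wls, which carries Wnt ligands to the surface, rose by 0.87. Among receptors Fzd4 (1.37), Fzd3 (0.73) and Fzd8 (0.62) rose, 5 of 18 against 1 that fell. The antagonist gene Sfrp1 rose by 0.58, Tle1 by 0.50 and Tcf7l2 by 0.40 on the log2 scale. Of the other targets 7 of 15 fell, among them Mixl1 (-2.76), which is also one of the streak markers, Fgf8 (-1.31) and Tbx6 (-1.04).

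From 48 h to 72 h in control Rspo3, an R-spondin that acts through Lgr receptors, fell from 8.47 to 7.23 (-1.24, limma adjusted p = 2.52e-05). Wnt3 (-0.80) and Wnt8a (-0.58) fell further. Porcn (-0.48), which attaches the lipid to Wnt ligands, the antagonist Dkk1 (-0.61) and Tle3 (-0.39) also fell. Fzd8 (-0.59) fell after its rise in the first step. Lgr4 rose by 0.48, Dact1 by 0.90 and Csnk1e by 0.30 on the log2 scale. The gene of beta-catenin itself, Ctnnb1, rose by 0.25 on the log2 scale to 10.44 (limma adjusted p = 0.0214). In this step Lgr5 and Rspo3 fell together while Lgr4 rose.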

How the data were processed

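RNA was hybridised to Affymetrix arrays, 1 sample per array, 18 in all. Each deposited value is the log2 signal of a probe set. RMA and Affymetrix Expression Console 1.3 are named in the submitters' processing notes, and a genome build was not given in the sources used here. Sorted values of the arrays differed by at most 0.19, as after quantile normalization, and no detection values were used, so dim genes were not set against background. Precision is limited by how many arrays there are.

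Of 41345 probe sets 23521 had a single gene symbol in the platform annotation (1814 had several, 16010 none here). The brightest probe set stood for a gene, which left 22180 genes. limma 3.58.1 in R 4.3.3 fitted 1 mean per group over all arrays (12 residual and 4.35 prior degrees of freedom) and 10 contrasts, and was checked on simulated data. Each p-value sets a difference of group means against the spread between arrays within groups, pooled over the 6 groups and moderated by limma.

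Named genes were the members, up to 3 called genes (or the smallest p on exposure) of each pathway list, the 3 genes nearest in pattern, and of cell type lists up to 2 genes with the largest exposure change; these lists are given mainly by summed levels. Members and lists were chosen with earlier results of these data known. Alternatives were another gene level, cyclic loess, a filter at the median signal, all probe sets, array weights, trended robust variance, the replicate block, a fit on the groups compared, and leaving out each array. Promoters came from RefSeq (GRCm38.p6).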

Additional observations from a re-analysis of the deposited data

Results flagged for a closer look

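The exposure effect on Sp5 differed between 24 h and 72 h by 0.84 on the log2 scale (72 h minus 24 h, limma adjusted p = 0.0228): it was -0.73 at 24 h and 0.11 at 72 h. The difference itself was tested as an interaction and drew attention for that reason. The exposed arrays of 24 h carry the re-analysis tag and those of 72 h do not, so the tag and time cannot be told apart in it. The level of Sp5 in control fell from 7.86 to 5.97 over the same time, and the streak markers' summed level fell with it. The part of either in the difference was not tested.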

How the results depend on the processing

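Of 553 member values under the 8 alternative settings 518 kept their direction and side of the threshold, 17 lost a call, 15 gained one and 3 changed sign; of 1260 values with 1 array left out these counts were 1210, 35, 6 and 9. No value that changed sign was called in either fit (lowest adjusted p = 0.819), and the cause was not tested. After cyclic loess Znrf3 at 24 h was 0.03, Sp5 at 48 h 0.01 and Nkd1 at 72 h 0.01. With 1 array left out the exposure values ran from -0.02 to 0.16 for Lgr5, -0.04 to 0.14 for Axin2 and -0.26 to 0.01 for Lef1 at 24 h, -0.09 to 0.05 for Sp5 at 48 h, -0.02 to 0.01 for Nkd1 and -0.03 to 0.05 for Znrf3 at 72 h, and the last control step of Znrf3 ran from -0.07 to 0.00.
Within each time, same-numbered control and exposed arrays deviated from their group means together at r = -0.14 to 0.12. Pairing by replicate number across times was not checked. With the replicate number as a block 1 member was called at 48 h (Lgr5, against 0), and over all genes 4 at 72 h (against 2), 5 for the effect from 48 h to 72 h (against 21) and 70 from 24 h to 72 h (against 110).
The number of members called on exposure at 48 h, 0 in the report, was also 1 after cyclic loess and with the trended robust variance, and 2 with genes dimmer than the median left out. For the control step from 48 h to 72 h it was 3 (against 5) in a fit of the groups compared, for the exposed step from 24 h to 48 h 3 with mean probe sets and in that fit and 2 with all probe sets (against 5), and for the exposed step from 48 h to 72 h 3 in that fit (against 5). For the effect from 48 h to 72 h it was 1 (against 0) with the median filter, and from 24 h to 72 h 0 (against 1) in a fit of the groups compared.
Fits of only the groups compared called 121 of all genes at 24 h (against 1521), 163 at 48 h (against 1349) and 0 at 72 h (against 2), 1141 (against 2236) and 828 (against 2260) in the 2 exposed steps, and 2 (against 21) and 5 (against 110) for the effects from 48 h and 24 h to 72 h. These fits have fewer samples. The median filter gave 38 at 72 h and 365 and 640 for these effects, the trended robust variance 30, 350 and 532, and all probe sets 0 at 72 h and 52 from 24 h to 72 h. Array weights gave 89 from 48 h to 72 h.
With 1 array left out all-gene counts ran from 581 to 1495 at 24 h, 494 to 1549 at 48 h and 0 to 81 at 72 h, 805 to 1544 in the last control and 1275 to 2434 in the last exposed step, and 2 to 31 and 8 to 119 for the effects. Member counts ran from 0 to 1 at 48 h, 3 to 6 in the last control step, 2 to 5 and 3 to 5 in the exposed steps, and 0 to 1 for the effect from 24 h to 72 h.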
